A study of Homo sapiens with 40 samples.

Results

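The 50 genes described here encode proteins that make ribosomes in the nucleolus. They are RNA polymerase I and its factors, the core proteins of the small nucleolar ribonucleoproteins (snoRNPs), and factors that cut, modify and fold pre-rRNA. The list is one of gene symbols and its rule uses no measured value, but it was drawn up with earlier results of these data known. All 50 symbols were matched through GENCODE v44 to the Ensembl identifiers of the count table, which lists 58395 genes. Of these, the 28922 whose counts reached 10 in sum over the 40 libraries were tested, and all 50 of the listed genes were among them.

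The libraries came from HEK293A cells, a human embryonic kidney line, and from a PARP1-KO line derived from it. PARP1 is poly(ADP-ribose) polymerase 1, an enzyme that binds DNA breaks. The knockout was made by deleting exons of PARP1 with CRISPR/Cas9 and the line is 1 clone, so whatever else changed as the clone was grown cannot be told apart from the knockout. Wild-type (WT) and PARP1-KO cells were each kept without treatment or given 0.1% DMSO, topotecan (Tpc), OL9-119, or Tpc together with OL9-119 for 5 to 5.5 h. Tpc traps topoisomerase 1 on DNA, and OL9-119 inhibits TDP1, which removes such trapped enzyme. The Tpc dose was 100 nM in WT cells and 50 nM in PARP1-KO cells, and OL9-119 was given at 5 μM to both. Every drug-treated culture also held 0.1% DMSO, so DMSO-treated cells of the same genotype were the comparator. There were 4 replicates of each of the 10 conditions, 40 libraries in all.

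Ribosome production starts when RNA polymerase I transcribes a long precursor from the rDNA repeats. Box C/D snoRNPs guide 2′-O-methylation of this precursor and box H/ACA snoRNPs guide pseudouridylation, and the U3 snoRNP with the UTP subcomplexes builds the small subunit processome around the growing transcript. Other factors mature the small subunit or assemble the large subunit, and many of the genes are known targets of MYC in dividing cells. Poly(A) libraries report the mRNAs of these proteins and carry no measure of pre-rRNA or of snoRNAs.

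Total counts ranged from 3455043 to 20379777 per library. Levels are given in CPM, counts of a gene per 1000000 of the TMM-normalized library size. PARP1 was at 30.4 to 46.6 CPM in the 20 PARP1-KO libraries and at 737 to 887 CPM in the 20 WT libraries, and its share of the WT mean was 4.33% to 5.24% under the 5 treatments (exact permutation test, two-sided p = 0.0286 under each, the smallest that 4 libraries against 4 allow). KRT8, KRT18 and VIM, markers of HEK293 cells, were high in all libraries (at least 189 CPM), while INA and PAX2 had medians of 0.333 and 1.40 CPM. Of the markers of other cell types, PTPRC, CD3E, APOA1 and DCN had a median of 0 CPM, and LUM was the highest, with a median of 2.16 CPM. When every library was thinned to the smallest total, 8 WT libraries showed fewer than 17000 genes and no PARP1-KO library did. These 8 were replicates 1 and 3 without treatment, 2 and 3 with DMSO, 2 with Tpc, 2 with OL9-119, and 1 and 2 with Tpc + OL9-119. Counts of called genes are therefore also given without these 8 libraries, a choice made after the data were seen.

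The promoters of a few of the genes whose levels are given in detail are shown first, because many ribosome biogenesis genes hold an E-box (CACGTG), the sequence bound by MYC and related factors, near the start site. The sequences are the RefSeq windows from 250 bases before to 50 bases after the start site (GRCh38.p14, 5′ to 3′ on the strand of the gene), and the capitals mark the motif. GNL3, WDR43 and DDX21 were higher in PARP1-KO cells with DMSO, GAR1 was lower, and RRN3 had the largest called difference. The window shown for GNL3 is chr3:52685782-52686081 on the plus strand, that for WDR43 chr2:28894417-28894716 on the plus strand, that for DDX21 chr10:68956397-68956696 on the plus strand, that for GAR1 chr4:109815512-109815811 on the plus strand, and that for RRN3 chr16:15094286-15094585 on the minus strand. RRN3 has no E-box in this window, and the capitals there mark the reverse complement of the ETS core, CGGAAG.

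GNL3: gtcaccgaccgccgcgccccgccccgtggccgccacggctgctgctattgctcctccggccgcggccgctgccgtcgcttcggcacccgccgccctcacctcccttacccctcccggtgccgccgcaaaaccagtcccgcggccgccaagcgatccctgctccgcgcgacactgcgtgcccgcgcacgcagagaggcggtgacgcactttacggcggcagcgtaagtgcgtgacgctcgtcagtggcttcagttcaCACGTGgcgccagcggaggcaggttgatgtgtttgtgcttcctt
WDR43: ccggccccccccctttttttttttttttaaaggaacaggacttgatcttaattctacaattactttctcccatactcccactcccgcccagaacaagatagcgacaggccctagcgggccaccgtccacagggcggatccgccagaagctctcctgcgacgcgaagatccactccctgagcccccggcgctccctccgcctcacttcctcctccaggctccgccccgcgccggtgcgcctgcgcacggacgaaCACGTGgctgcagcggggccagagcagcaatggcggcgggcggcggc
DDX21: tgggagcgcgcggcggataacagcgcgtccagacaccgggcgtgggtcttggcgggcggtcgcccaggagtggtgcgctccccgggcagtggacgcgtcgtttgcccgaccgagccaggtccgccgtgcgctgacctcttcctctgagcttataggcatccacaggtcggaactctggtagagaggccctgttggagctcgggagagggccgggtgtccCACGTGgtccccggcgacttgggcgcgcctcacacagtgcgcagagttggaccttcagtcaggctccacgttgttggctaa
GAR1: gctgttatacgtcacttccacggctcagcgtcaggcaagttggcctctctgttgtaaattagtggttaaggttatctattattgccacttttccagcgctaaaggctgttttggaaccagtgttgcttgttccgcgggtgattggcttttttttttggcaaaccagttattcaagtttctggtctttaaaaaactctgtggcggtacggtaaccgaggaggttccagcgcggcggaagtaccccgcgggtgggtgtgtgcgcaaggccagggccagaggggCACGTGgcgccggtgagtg
RRN3: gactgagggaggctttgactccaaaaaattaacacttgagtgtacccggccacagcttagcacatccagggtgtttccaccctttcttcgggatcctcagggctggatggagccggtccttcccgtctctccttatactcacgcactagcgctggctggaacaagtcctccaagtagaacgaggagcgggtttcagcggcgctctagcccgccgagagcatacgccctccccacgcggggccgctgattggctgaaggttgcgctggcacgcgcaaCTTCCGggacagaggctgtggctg

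In the windows shown, the E-box began 6 bases after the start site in GNL3, 3 bases after it in WDR43 and 31 bases after it in GAR1, and 31 bases before it in DDX21. GNL3, DDX21, GAR1 and RRN3 have 2 windows each, at different start sites, of which 1 is shown. CACGTG was in no more than 1 window of any of the genes, so the windows of GNL3, DDX21 and GAR1 that are not shown lack it. Windows were found for 43 of the 50 genes, 51 windows in all, and not for RRS1, POLR1E, MPHOSPH10, RRP12, NOP58, NOLC1 and BOP1. CACGTG, which reads the same on both strands, was present in 19 of these 51 windows (37.3%). It was in 7.26% of all 35116 windows of this length and in 8.53% of the 21661 windows of genes tested. Of the 15 genes with a window that were called higher with DMSO, 8 held it (BYSL, DDX21, GNL2, GNL3, UTP14A, UTP18, UTP4 and WDR43), as did 1 of the 4 called lower (GAR1) and 10 of the 24 not called. The ETS core CGGAAG, searched on both strands, was in 25 of the 51 windows against 19.5% of all windows, and the CCAAT box (CCAAT, both strands) was in 19 of the 51 against 34.6%. A match is a run of letters and not a measured binding site.

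In PARP1-KO cells with DMSO, 18 of the 50 genes were higher than in WT cells and 4 were lower, at an adjusted p below 0.01 by the quasi-likelihood test of edgeR. The same threshold was passed by 12.4% of the 28922 genes tested (6.67% higher and 5.75% lower). The 50 are mostly well expressed, and of the 10523 genes with a mean of at least 10 CPM, 29.7% passed, with 15.5% higher and 14.3% lower, against 36.0% higher and 8.0% lower of the 50. The levels of the 4 libraries of each genotype did not overlap for 24 of the 50, against 20.1% of all genes tested. The latter share covers genes of all levels and was not computed for the well expressed genes alone. The median log2 fold change of the 50 was 0.28, that of all genes tested was 0.19 and that of the well expressed genes was 0.02. The libraries are of whole cultures, so a change in all cells and a change in the share of cells that express a gene cannot be told apart. The plot of log2 fold changes by role shows that both directions occurred within the same molecular machines.

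**Figure D1:**
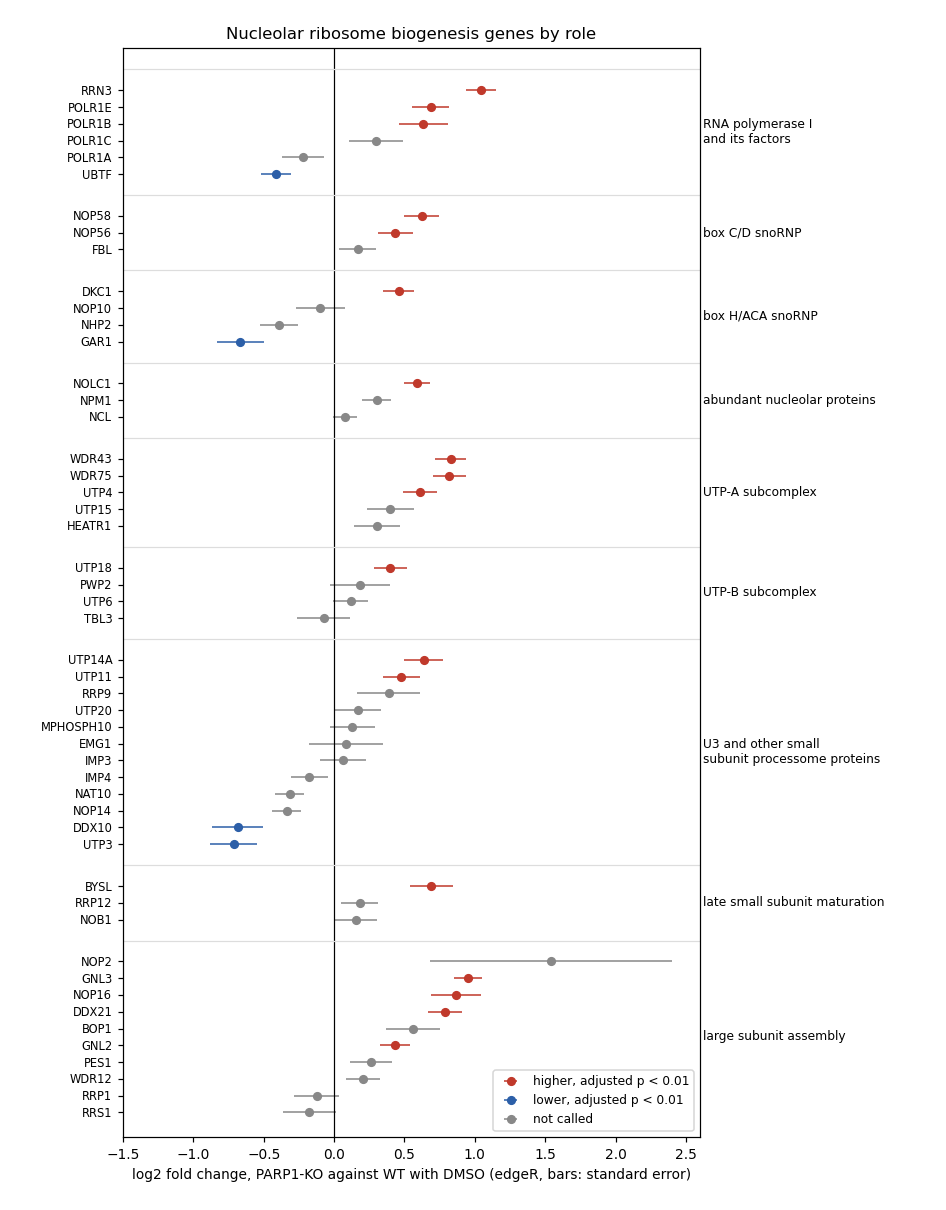
Log2 fold change of each of the 50 genes in PARP1-KO against WT cells with DMSO (x axis, edgeR estimate; bars are the standard error), grouped by role, with 4 libraries per genotype. Red points are the 18 genes called higher and blue points the 4 called lower. NOP2, at the far right, has a wide bar and was not called.

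Among RNA polymerase I and its factors, 3 of 6 genes rose, RRN3, POLR1E and POLR1B, and 1 fell, UBTF. RRN3 (ENSG00000085721, chr16:15060033-15094311, minus strand) encodes TIF-IA, which makes the polymerase competent to initiate. It was at 126.1, 124.8, 88.3 and 140.3 CPM in the 4 WT libraries with DMSO and at 228, 254, 255 and 250.3 CPM in the 4 PARP1-KO libraries. The lowest PARP1-KO library was thus well above the highest WT library (log2 fold change 1.04, SE 0.105, adjusted p = 1.48e-11). RRN3 has 3 named pseudogenes, so its counts carry some uncertainty. UBTF, which bends and holds open the rDNA, went the other way, at 253, 231, 259 and 202 CPM in WT and 168, 171, 193 and 178 CPM in PARP1-KO libraries, again without overlap (log2 fold change −0.41, SE 0.107, adjusted p = 0.00317). This call of UBTF was lost with length and GC offsets, with library complexity as a covariate and in the fit of the 2 conditions alone, with adjusted p from 0.0392 to 0.0464, and without PARP1-KO replicate 1 or 2 or WT replicate 1 or 3, with adjusted p from 0.0103 to 0.0151. The subunits POLR1E (0.69, adjusted p = 5.73e-05) and POLR1B (0.63, adjusted p = 0.00535) rose, while POLR1C (0.30) and the largest subunit POLR1A (−0.22) were not called.

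Of the box C/D snoRNP, which carries out rRNA methylation, the scaffold proteins NOP58 and NOP56 rose and the methyltransferase fibrillarin (FBL) was not called. NOP58 (ENSG00000055044, chr2:202265736-202303661, plus strand) stood at 247, 246, 343 and 228 CPM in WT and 382, 405, 469 and 382 CPM in PARP1-KO libraries (log2 fold change 0.62, SE 0.124, adjusted p = 0.000102). The third WT library was far above the other 3 and still under every PARP1-KO library. FBL was at 390.1, 319, 507 and 302 CPM in WT and 432, 439, 391 and 446 CPM in PARP1-KO libraries. Its WT libraries spread so widely that they enclosed those of the PARP1-KO cells (log2 fold change 0.17, SE 0.131, adjusted p = 0.372). With length and GC offsets FBL was called higher (0.44, adjusted p = 5.27e-05). NOP56, the partner of NOP58, rose by 0.43 on the log2 scale (adjusted p = 0.00797).

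The box H/ACA snoRNP, which isomerizes uridine to pseudouridine, was split. DKC1, the pseudouridine synthase dyskerin, rose from 232, 148, 231 and 202 CPM in WT to 282, 305, 265 and 263 CPM in PARP1-KO libraries (log2 fold change 0.46, SE 0.107, adjusted p = 0.00102). GAR1 (ENSG00000109534, chr4:109815510-109824740, plus strand), which helps release the substrate, fell from 58.3, 45.4, 69.2 and 46.5 CPM to 33.1, 35.0, 35.3 and 34.7 CPM (log2 fold change −0.67, SE 0.167, adjusted p = 0.00201). The groups did not overlap for either gene. The call of DKC1 was lost without WT replicate 2 (adjusted p = 0.0226), with length and GC offsets (adjusted p = 0.0409) and in the fit of the 2 conditions alone (adjusted p = 0.0647). That of GAR1 was lost without WT replicate 3 (adjusted p = 0.0158), with library complexity as a covariate (adjusted p = 0.0358) and in the fit of the 2 conditions alone (adjusted p = 0.0116). The small core proteins NHP2 (−0.39, adjusted p = 0.0308) and NOP10 (−0.10) were not called.

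The 3 abundant nucleolar proteins were ordered by size of difference as NOLC1, NPM1 and NCL. NOLC1 (Nopp140), a chaperone of snoRNPs, rose to 445, 414, 503 and 447 CPM in PARP1-KO libraries from 294, 324, 288 and 297 CPM in WT libraries (log2 fold change 0.59, SE 0.0947, adjusted p = 2.37e-06). Its 2 groups were each tight and far apart. NCL (nucleolin), which binds nascent pre-rRNA, was at 1379, 1371, 1511 and 1445 CPM in WT and 1436, 1644, 1464 and 1479 CPM in PARP1-KO libraries and was not called (log2 fold change 0.08, SE 0.0827, adjusted p = 0.527). NPM1 (nucleophosmin), which had the highest level per kilobase of exon of the 50 genes (a mean of 282 CPM per kb over all libraries), differed by 0.30 on the log2 scale and was not called with DMSO (adjusted p = 0.0285). In the other 4 genotype comparisons NPM1 was called higher, with log2 fold changes up to 0.56. It has 49 named pseudogenes, so its counts are uncertain. FBL and NCL followed in level per kilobase, with 173 and 163 CPM per kb, while NOP2 (0.362 CPM per kb) was the lowest of the 50. The length used counts all annotated exons, 2138 bases for FBL and 8919 for NCL. Without division by length, NCL was above FBL, at means of 1451 and 369 CPM.

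Of the UTP-A subcomplex, which binds the precursor first, 3 of 5 genes rose and none fell. WDR43 (ENSG00000163811, chr2:28894667-28948219, plus strand) rose from 136, 144, 111.6 and 158 CPM in WT to 220.1, 239, 286 and 231 CPM in PARP1-KO libraries (log2 fold change 0.83, SE 0.110, adjusted p = 3.16e-08). WDR75 rose similarly (0.82, adjusted p = 3.01e-07), as did UTP4 (0.61, adjusted p = 6.38e-05). HEATR1, the largest protein of the subcomplex, was at 97.8, 163, 105.6 and 204 CPM in WT and 159, 174, 187 and 182 CPM in PARP1-KO libraries. The WT values ran from below to above those of the PARP1-KO cells (log2 fold change 0.30, SE 0.162, adjusted p = 0.181), and 23.1% of the exon length of HEATR1 is overlapped by genes on the opposite strand. UTP15 was not called with DMSO (0.40, adjusted p = 0.0856) and was called higher in 1 of the other genotype comparisons.

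In the UTP-B subcomplex, which is recruited next, only UTP18 of 4 genes was called. UTP18 was at 110.5, 102.5, 112.5 and 108.5 CPM in WT and 143, 144, 153 and 133 CPM in PARP1-KO libraries (log2 fold change 0.40, SE 0.115, adjusted p = 0.00799). These values do not overlap, but the adjusted p was close to the threshold and passed it in only 1 of 8 leave-one-out fits. TBL3 was at 63.0, 43.9, 95.0 and 59.0 CPM in WT and 62.7, 63.5, 56.2 and 65.2 CPM in PARP1-KO libraries (log2 fold change −0.08, SE 0.185, adjusted p = 0.833), and UTP6 and PWP2 had log2 fold changes of 0.12 and 0.18.

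The 12 U3 and other small subunit processome proteins held 2 of the higher and 2 of the lower genes. UTP14A, which activates the helicase that releases U3, rose from 81.0, 84.5, 89.4 and 73.4 CPM in WT to 102.6, 117.4, 167 and 123.7 CPM in PARP1-KO libraries (log2 fold change 0.64, SE 0.141, adjusted p = 0.000477). Without PARP1-KO replicate 3, its highest library, the adjusted p of UTP14A was 0.0121, and in the fit of the 2 conditions alone it was 0.0117. UTP11 rose too (0.48, adjusted p = 0.00648). UTP3 (ENSG00000132467, chr4:70688532-70690551, plus strand), known as SAS10, fell from 67.2, 63.1, 107.99 and 57.0 CPM to 37.0, 46.8, 54.5 and 41.5 CPM (log2 fold change −0.71, SE 0.167, adjusted p = 0.000941). WT replicate 3 was the highest library, and without it the log2 fold change of UTP3 was −0.49 (adjusted p = 0.0242). The call of UTP3 was also lost with library complexity as a covariate (adjusted p = 0.0376) and in the fit of the 2 conditions alone (adjusted p = 0.0107). The helicase DDX10 was the other to fall (−0.69, adjusted p = 0.00334). The remaining 8, RRP9, UTP20, MPHOSPH10, EMG1, IMP3, IMP4, NAT10 and NOP14, ranged from −0.34 to 0.39. IMP3 and EMG1 overlap genes of the opposite strand over 58.1% and 55.5% of their exon length.

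Of the 3 factors of late small subunit maturation, BYSL (bystin) rose from 47.2, 41.0, 42.3 and 42.4 CPM in WT to 66.2, 69.0, 68.9 and 75.3 CPM in PARP1-KO libraries (log2 fold change 0.69, SE 0.154, adjusted p = 0.00053). All 4 WT libraries lay close together. BYSL did not pass with library complexity as a covariate (adjusted p = 0.0144). NOB1, the endonuclease that makes the 3′ end of 18S rRNA, was at 54.4, 49.8, 87.6 and 50.3 CPM in WT and 62.5, 65.4, 80.9 and 60.8 CPM in PARP1-KO libraries (log2 fold change 0.16, SE 0.151, adjusted p = 0.491). With length and GC offsets NOB1 was called higher (0.44, adjusted p = 0.00873). The export factor RRP12 had a log2 fold change of 0.18.

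Large subunit assembly held 4 higher genes of 10 (GNL3, NOP16, DDX21 and GNL2) and no lower one. GNL3 (ENSG00000163938, chr3:52681156-52694497, plus strand), the GTPase nucleostemin, was at 223, 199, 209.6 and 205 CPM in WT and 393, 381, 454 and 387 CPM in PARP1-KO libraries (log2 fold change 0.95, SE 0.0986, adjusted p = 3.28e-11). NOP16 was at 40.9, 19.2, 23.4 and 24.0 CPM in WT and 43.9, 49.7, 57.1 and 46.5 CPM in PARP1-KO libraries (log2 fold change 0.87, SE 0.177, adjusted p = 0.000165). GNL3 was separated by a wide gap, while the highest WT library of NOP16 came near the lowest PARP1-KO library. DDX21 (ENSG00000165732, chr10:68956135-68985068, plus strand), an RNA helicase that acts on rDNA transcription and pre-rRNA, rose from 399.9, 482, 416 and 561 CPM to 736, 764, 941 and 769 CPM (log2 fold change 0.79, SE 0.124, adjusted p = 1.65e-06). GNL2, a GTPase of pre-60S particles, had a smaller increase (0.43, adjusted p = 0.00208). The PeBoW complex of BOP1, PES1 and WDR12 had log2 fold changes of 0.56, 0.26 and 0.21, none of them called, and RRP1 and RRS1 had −0.12 and −0.18. Under the other treatments, WDR12 was called higher in 2 genotype comparisons and BOP1 in 1. RRS1 was at 18.5, 28.2, 38.2 and 24.4 CPM in WT and 21.1, 29.2, 25.8 and 20.2 CPM in PARP1-KO libraries, with overlap. NOP2, the rRNA methyltransferase, was counted only a few times, at 1.71, 0.211, 0 and 1.10 CPM in WT and 2.56, 3.05, 1.08 and 2.33 CPM in PARP1-KO libraries. Its log2 fold change of 1.54 (SE 0.860, adjusted p = 0.203) is not distinguishable from 0 with so few counts, and 54.4% of its exon length is shared with another annotated gene on the same strand, so its level here is uncertain.

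**Figure D2:**
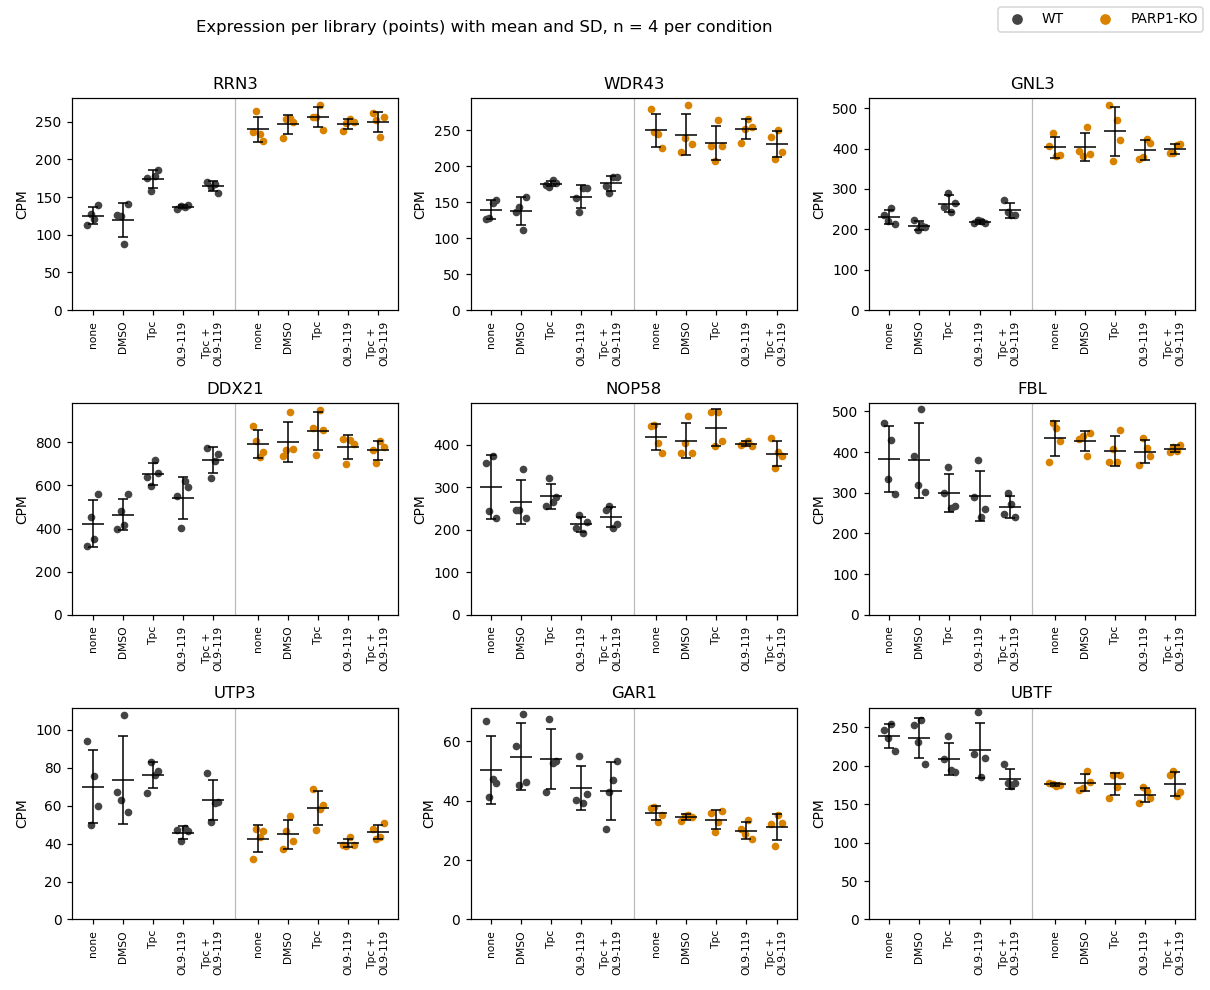
CPM per library (points) with mean and SD (bars, n = 4) for 9 of the genes under the 5 treatments, WT in grey and PARP1-KO in orange, on axes that start at 0. RRN3, WDR43 and GNL3 stay apart between genotypes under each treatment, while DDX21 of WT cells approaches the PARP1-KO level with Tpc + OL9-119.

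Without treatment, 13 of the 50 genes were higher and 4 lower in PARP1-KO cells, where 11.7% of all genes tested (5.97% higher and 5.74% lower) and 28.4% of the well expressed genes were called. The 3 highest were RRN3, DDX21 and WDR43. RRN3 was at 113.1, 127.9, 121.02 and 139.9 CPM in WT and 237, 264, 234 and 225 CPM in PARP1-KO libraries (log2 fold change 0.94, SE 0.105, adjusted p = 4.56e-10). DDX21 went from 321, 454, 354 and 562 CPM to 878, 806, 733 and 757 CPM (log2 fold change 0.91, SE 0.125, adjusted p = 8.03e-08), and WDR43 from 127.2, 128.6, 149 and 153 CPM to 279.9, 248, 245 and 225 CPM (log2 fold change 0.84, SE 0.110, adjusted p = 2.41e-08). In each case every PARP1-KO library was above every WT library. The 3 lowest whose groups did not overlap were UTP3 (−0.71, adjusted p = 0.000989), DDX10 (−0.71, adjusted p = 0.00231) and UBTF (−0.44, adjusted p = 0.00153). UBTF did not pass with length and GC offsets (adjusted p = 0.0344). NAT10 was called as well (−0.37, adjusted p = 0.0088). UTP3 and DDX10 were both highest in WT replicate 1, one of the libraries with few genes, and neither passed when the 8 such libraries were left out (adjusted p = 0.0705 and 0.0955). Of the 22 genes called with DMSO, 15 were called in the same direction without treatment, which is 68.2% of the calls with DMSO and 88.2% of the 17 without treatment. Over the well expressed genes the same shares were 75.7% and 79.1%. No gene was called in opposite directions. These 2 comparisons used separate libraries of the same clone.

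With Tpc, 14 genes were higher and 3 lower in PARP1-KO cells (8.52% of all genes tested, 4.17% higher and 4.34% lower, and 20.8% of the well expressed genes were called), and the Tpc doses of the genotypes differ. The 3 highest were GNL3 (0.75), NOP16 (0.66) and NOP58 (0.66), and the lowest were GAR1 (−0.69), POLR1A (−0.66) and NAT10 (−0.45). POLR1A, the catalytic subunit of RNA polymerase I, was called under Tpc alone, at 115.5, 92.7, 124.1 and 119.9 CPM in WT and 70.9, 80.2, 66.0 and 68.4 CPM in PARP1-KO libraries (log2 fold change −0.66, SE 0.149, adjusted p = 0.000901). NAT10, which acetylates rRNA, was at 201, 174, 196 and 203 CPM in WT and 146, 142, 131 and 149.5 CPM in PARP1-KO libraries (log2 fold change −0.45, SE 0.105, adjusted p = 0.00149). The call of NOP16 under Tpc was lost in 6 of 8 leave-one-out fits, and that of GAR1 without WT replicate 2 (adjusted p = 0.0182) or PARP1-KO replicate 2 (adjusted p = 0.0125).

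With OL9-119, 18 genes were higher and 3 lower, where 9.77% of all genes tested (4.94% higher and 4.83% lower) and 24.2% of the well expressed genes were called. NOP58 led, at 205, 236, 193 and 217 CPM in WT and 401, 405, 410.2 and 397 CPM in PARP1-KO libraries (log2 fold change 0.92, SE 0.124, adjusted p = 6.46e-08), followed by GNL3 (0.86) and RRN3 (0.85). Both groups of NOP58 were narrow and did not overlap. The 3 lower genes were NOP14 (−0.52), UBTF (−0.44) and NAT10 (−0.43). UBTF was lost with length and GC offsets (−0.24, adjusted p = 0.11), without WT replicate 2 (adjusted p = 0.0374) and without PARP1-KO replicate 1 (adjusted p = 0.0131), and NAT10 without PARP1-KO replicate 1 (adjusted p = 0.0112).

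With Tpc + OL9-119, 12 genes were higher and 2 lower (7.27% of all genes tested, 3.56% higher and 3.71% lower, and 17.1% of the well expressed genes were called). BOP1 was the highest, at 35.7, 54.8, 73.1 and 61.0 CPM in WT and 129.7, 131, 107.4 and 110.98 CPM in PARP1-KO libraries (log2 fold change 1.10, SE 0.193, adjusted p = 2.71e-05), and was not called under the other 4 treatments. NOP16 (0.73) and NOP58 (0.72) came next. NOP14 (−0.55), a processome scaffold, and NAT10 (−0.51) were the lower ones. FBL, not called in the other 4 comparisons as fitted here, was also higher (0.62, adjusted p = 0.000522).

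Across the 5 genotype comparisons, 6 genes were called higher in all 5: GNL3, NOLC1, NOP16, NOP58, RRN3 and UTP4. That is 12.0% of the 50, against 1.37% of all genes tested and 3.5% of the well expressed genes, while none was lower in all 5, against 4.64% of the well expressed genes. Higher in at least 1 were 23 (46.0%, against 22.8% of the well expressed genes), lower in at least 1 were 7 of the 50 (21.6% of the well expressed genes), none was called in both directions and 20 of the 50 were never called (55.8% of the well expressed genes). For 39 genes the log2 fold change had the same sign under all 5 treatments, above 0 for 31 and below 0 for 8 (of the well expressed genes, 32.1% and 30.4%). The median of the 50 was 0.34 in untreated cells, 0.28 with the solvent, 0.25 under Tpc, 0.33 under OL9-119 and 0.31 under both drugs, while the medians of the well expressed genes were all within 0.02 of 0. Without the 8 WT libraries of few genes, 25 of the 50 were called with the solvent, 26 in untreated cells, 25 under Tpc, 27 under OL9-119 and 22 under both drugs. The share of all genes tested that was called moved in the same direction, to 14.6%, 13.4%, 15.4%, 16.5% and 9.36% in that order.

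**Figure D3:**
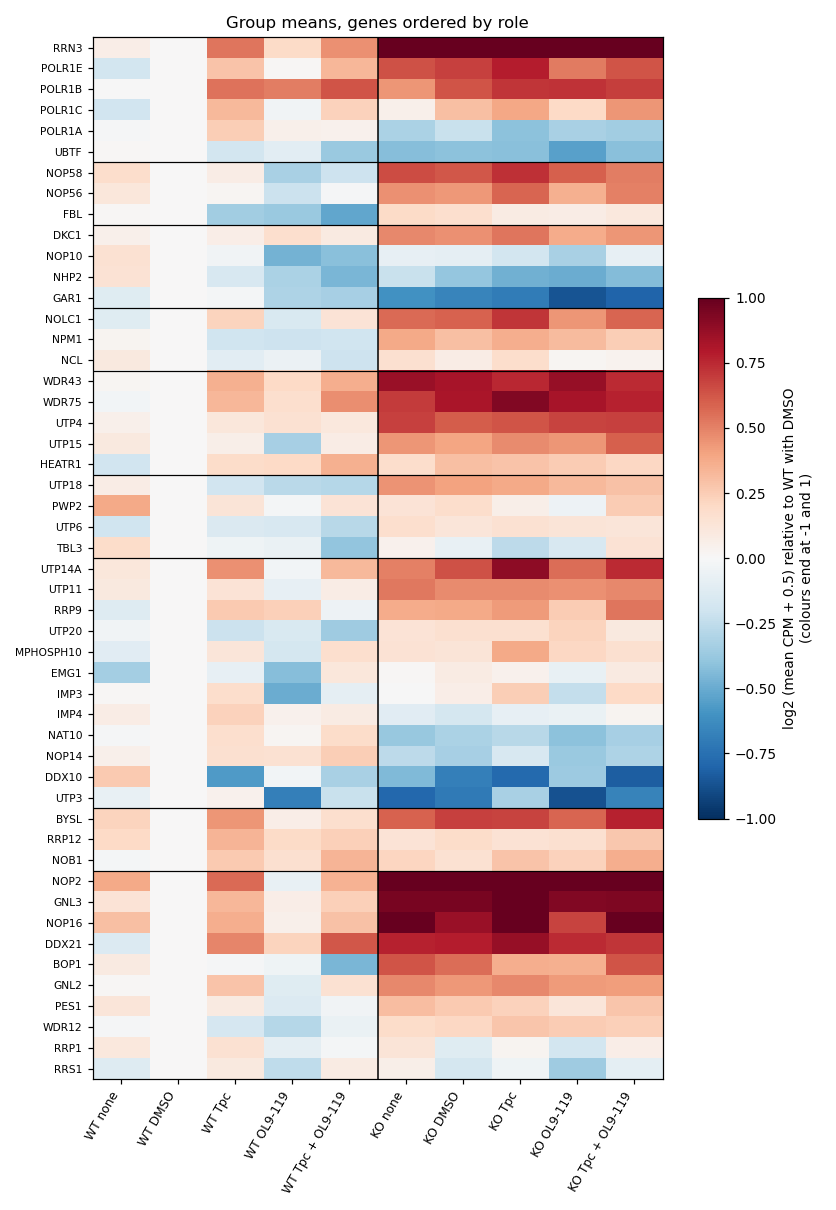
Mean level of each gene (rows, ordered by role, lines between roles) in each of the 10 conditions (columns, n = 4), as log2 of the mean CPM plus 0.5 relative to WT cells with DMSO. Colours end at −1 and 1. RRN3, GNL3, NOP16 and NOP2, the last with few counts, lie nearest to the upper end in PARP1-KO cells.

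Summed over the 50 genes, their share of the normalized counts in WT cells was 0.971% ± 0.0761 (SD, n = 4) when untreated, 0.944% ± 0.0830 with the solvent, 0.965% ± 0.0555 under Tpc, 0.887% ± 0.0527 under OL9-119 and 0.929% ± 0.0342 under both drugs. In the same order, the PARP1-KO values were 1.20% ± 0.0545, 1.17% ± 0.0582, 1.23% ± 0.0616, 1.14% ± 0.0337 and 1.16% ± 0.0212. All 20 WT libraries lay between 0.852% and 1.06% and all 20 PARP1-KO libraries between 1.10% and 1.29%. The sum is dominated by NPM1, NCL and other abundant mRNAs, and is given as a description.

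**Figure D4:**
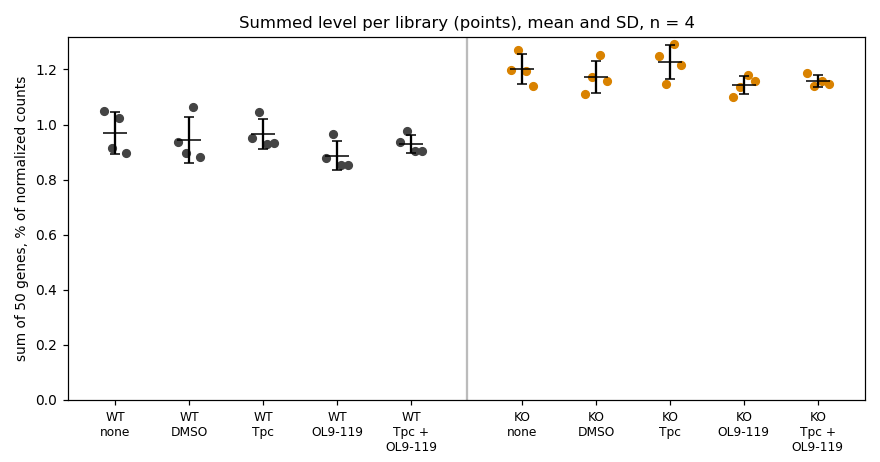
Sum of the 50 genes as a percentage of normalized counts in each library (points), with mean and SD (n = 4) for each condition, WT in grey and PARP1-KO in orange. The 20 WT libraries reach 1.06% at most and the 20 PARP1-KO libraries start at 1.10%.

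Of the variance of log-scaled levels over the 40 libraries, the genotype held a median of 47.3% for the 50 genes, the treatments within a genotype 14.4% and the replicates 32.4%. For the 10523 well expressed genes these medians were 26.7%, 18.7% and 46.5%. The genotype held more than 50% for 24 of the 50 genes (48.0%) and for 27.5% of the well expressed genes. GNL3 was at the top with 90.5%, ahead of UTP4 with 83.9% and RRN3 with 82.2%, and NOP10, PWP2 and TBL3 were at the bottom.

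Position in the genome went with the direction of the lower genes. In PARP1-KO cells with DMSO, the median log2 fold change was −0.43 over 386 well expressed genes of chromosome 4 and −0.50 over 607 of chromosome 11, against 0.07 over those of the other chromosomes, and the values were alike under the other treatments (−0.41 to −0.53 on chromosome 4 and −0.44 to −0.51 on chromosome 11). All 5 of the 50 genes on these chromosomes, GAR1, UTP3 and NOP14 on chromosome 4 and DDX10 and NAT10 on chromosome 11, were below 0 in each genotype comparison, and they make up 5 of the 7 genes ever called lower. With DMSO, 3 of these 5 were lower and none higher, while 18 of the other 45 were higher and 1 (UBTF) was lower. For GAR1, the 32 well expressed genes within 5 Mb had a median of −0.69, close to its own −0.67. The match was less close for UTP3 (neighbours −0.36, own −0.71) and DDX10 (−0.50 and −0.69). For NOP14 the 2 values were −0.26 and −0.34, and for NAT10 −0.40 and −0.32. A difference of these 5 genes that belongs to their chromosomes and one that belongs to their function cannot be told apart here. The medians of the neighbours of the 18 higher genes were above 0 for 8 and below 0 for 10, from −0.48 around DDX21 to 0.33 around WDR75.

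GC content of the transcripts also moved with the calls. The 18 higher genes had a median GC content of 44.5%, the 4 lower genes 43.8% and the 28 not called 51.8%. Across the 50 genes, the log2 fold change with DMSO and GC content had a Spearman correlation of −0.27, the same as across the well expressed genes, with genes sharing the same 8 libraries. With offsets for length and GC content the counts with DMSO were 20 higher and 3 lower.

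The wider pathway was read from 113 other ribosome biogenesis genes. With DMSO, 31 of them were higher and 3 lower, with a median log2 fold change of 0.30. Their share called, 30.1%, was near the 29.7% of the well expressed genes, and the split was 27.4% higher and 2.65% lower against 15.5% and 14.3%. Other small subunit factors had 13 higher and 1 lower of 34, other large subunit factors 12 and 2 of 44, snoRNP assembly factors 3 and 0 of 11, other RNA polymerase I subunits and initiation factors 2 and 0 of 10, and the nuclear exosome, which trims and degrades RNA, 1 and 0 of 14. The largest increases were those of UTP25, a processome protein (83.5 ± 11.2 CPM against 32.6 ± 5.10, log2 fold change 1.36, adjusted p = 4.59e-12), NUFIP1, a snoRNP assembly factor (1.36, adjusted p = 2.05e-07), and UTP23 (1.33, adjusted p = 2.52e-10). TSR3, which modifies 18S rRNA, fell (−0.74, adjusted p = 0.00153), as did DDX54, whose groups overlapped (−0.51, adjusted p = 0.00714), and SDAD1 (−0.45, adjusted p = 0.00773), which lies on chromosome 4. TSR3 did not pass without WT replicate 3 (adjusted p = 0.0334), without PARP1-KO replicate 3 (adjusted p = 0.0159) or with length and GC offsets (−0.40, adjusted p = 0.0277), and SDAD1 was lost in 5 of 8 leave-one-out fits and in 5 of 10 other settings. Of the same 113 genes, 32 were higher and 3 lower in untreated PARP1-KO cells (31.0% called, against 28.4% of the well expressed genes), 20 and 2 under Tpc (19.5% against 20.8%), 32 and 2 under OL9-119 (30.1% against 24.2%), and 17 and 1 under both drugs (15.9% against 17.1%). The total shares called thus lay near the background.

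MYC, the transcription factor known to drive many of these genes, was at 22.6, 27.6, 21.7 and 16.9 CPM in WT and 31.7, 36.7, 58.0 and 43.4 CPM in PARP1-KO libraries with DMSO (log2 fold change 0.93, SE 0.206, adjusted p = 0.000511). It was not called between the genotypes under the other treatments, with log2 fold changes of 0.48 in untreated cells, 0.40 under Tpc, 0.59 under OL9-119 and 0.63 under both drugs. With DMSO, the adjusted p was 0.0102 without PARP1-KO replicate 3. Its part in the levels of the 50 genes was not tested.

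The drugs moved few of the genes. DMSO against no treatment called none of the 50 in either genotype, where 0% of all genes tested were called, and none of the 50 had an unadjusted p below 0.05. With Tpc, 1 gene of 50 rose in WT cells, RRN3, where 0.985% of all genes tested (0.356% lower) and 2.53% of the well expressed genes were called. RRN3 went to 175, 158, 178 and 186 CPM from the 126.1, 124.8, 88.3 and 140.3 CPM given above (log2 fold change 0.54, SE 0.105, adjusted p = 0.000711). All Tpc libraries were above all DMSO libraries, but without WT DMSO replicate 3, the lowest, the log2 fold change was 0.42 and the adjusted p 0.0104. At an unadjusted p below 0.05 there were 15 of the 50, RRN3 included, against 16.2% of all genes tested and 23.3% of the well expressed genes.

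With OL9-119, none of the 50 was called in WT cells, where 1.15% of all genes tested (0.488% higher and 0.667% lower) and 3.08% of the well expressed genes were. At an unadjusted p below 0.05 there were 11 of the 50, against 17.0% of all genes tested and 25.5% of the well expressed genes. UTP3 came closest, at 47.3, 41.2, 48.5 and 46.5 CPM against 67.2, 63.1, 107.99 and 57.0 CPM with DMSO (log2 fold change −0.69, SE 0.167, adjusted p = 0.0107), and passed with DESeq2 and 4 other settings. All 4 OL9-119 libraries were below the 4 DMSO libraries.

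With Tpc + OL9-119, 3 genes rose in WT cells, DDX21, WDR75 and RRN3, and 1 fell, FBL. That is 8.0% of the 50, against 3.38% of all genes tested (1.84% higher) and 8.69% of the well expressed genes. DDX21 reached 774, 634, 712 and 746 CPM, from 399.9, 482, 416 and 561 CPM with DMSO (log2 fold change 0.62, SE 0.124, adjusted p = 0.000424). The call of DDX21 held in all 11 alternative settings and in all 8 leave-one-out fits. WDR75 reached 100.5, 88.6, 87.0 and 96.7 CPM from 68.9, 78.4, 55.6 and 66.4 CPM (log2 fold change 0.47, SE 0.120, adjusted p = 0.0082), RRN3 rose by 0.46 on the log2 scale (adjusted p = 0.00278), and FBL fell to 248, 299, 273 and 241 CPM (log2 fold change −0.52, SE 0.132, adjusted p = 0.00812). The other 3 calls were less stable. Of the 8 leave-one-out fits, 7 lost WDR75, 5 lost FBL and 2 lost RRN3, and of the 11 alternative settings, 5, 2 and 4 did. Without WT DMSO replicate 3 or without WT Tpc + OL9-119 replicate 1 only DDX21 was called. The comparisons with Tpc, OL9-119 and the combination share their DMSO libraries. Against Tpc alone, the combination called none of the 50 in WT cells (0.18% of all genes tested, 0.0622% lower), and 4 had an unadjusted p below 0.05, against 10.8% of all genes tested.

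**Figure D5:**
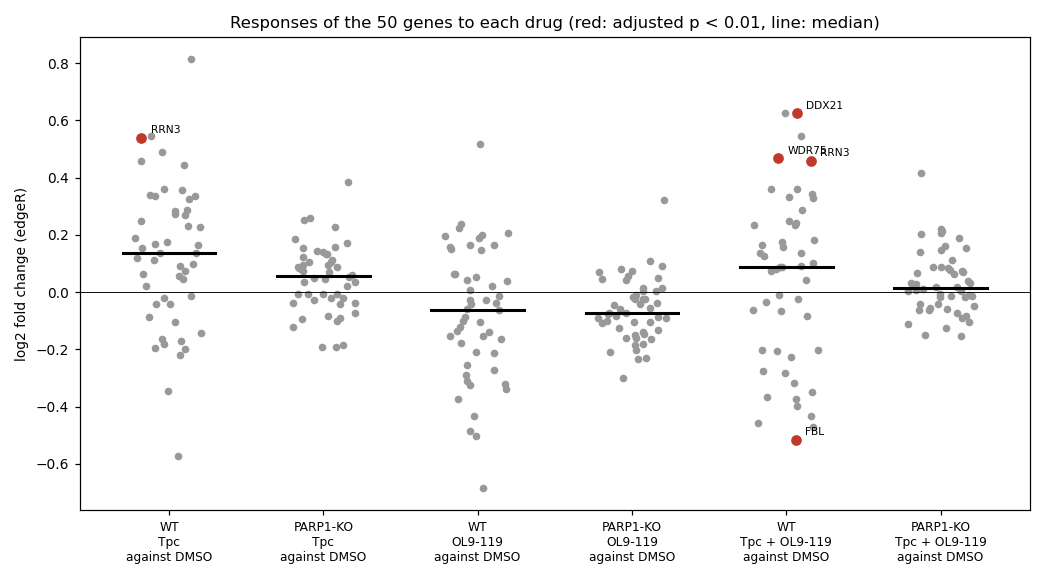
Log2 fold change of the 50 genes (points) for each drug against DMSO in WT and PARP1-KO cells, with the median as a black line and called genes in red. Points spread more widely in WT than in PARP1-KO cells. The range was also wider in WT cells without a drug, for DMSO against no treatment (−0.55 to 0.34, against −0.25 to 0.23 in PARP1-KO cells). The red points are RRN3 with Tpc and DDX21, WDR75, RRN3 and FBL with Tpc + OL9-119 in WT cells.

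In PARP1-KO cells, none of the 50 was called by edgeR with Tpc (0% of all genes tested called), OL9-119 (0.00346%) or Tpc + OL9-119 (0%), nor with the combination against Tpc (0%). At an unadjusted p below 0.05 there were 1, 0, 0 and 2 of the 50, against 3.81%, 2.32%, 2.88% and 4.1% of all genes tested. Their log2 fold changes ran from −0.19 to 0.38 with Tpc, from −0.30 to 0.32 with OL9-119 and from −0.15 to 0.42 with the combination, with standard errors from 0.0827 to 0.818. RRN3 was at 257, 257, 272 and 239.8 CPM with Tpc and DDX21 at 762, 705, 806 and 776 CPM with the combination, both within or near the range of the PARP1-KO libraries with DMSO.

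The difference between the responses was tested directly. None of the 50 passed for Tpc (0.173% of all genes tested called, 0.0311% higher and 0.142% lower, 5 of the 50 at an unadjusted p below 0.05), OL9-119 (0.1%, 0.0207% higher, 1 of the 50) or the combination (0.432%, 11 of the 50). The shares of all genes tested at that unadjusted p were 8.68%, 8.37% and 13%, and 19.3% of the well expressed genes for the combination. DDX21 was nearest to the threshold, with a response to the combination that was lower by 0.70 on the log2 scale in PARP1-KO than in WT cells (log2 difference −0.70, SE 0.175, adjusted p = 0.0287). It passed with DESeq2, without the filter, against untreated cells and without the 8 libraries of few genes. The Tpc dose in PARP1-KO cells was 50 nM against 100 nM in WT cells, so genotype and dose cannot be told apart in the differences for Tpc and for the combination. The OL9-119 dose was the same in both genotypes.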

How the data were processed

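The deposited table held raw counts per gene, 1 column per library. Per the paper's methods and the submitters' processing notes, the authors sequenced strand-specific poly(A) libraries in paired reads and mapped and counted them on hg38 with STAR 2.7.8. The strand setting that was kept is not given in the sources used here, so genes overlapping others on the opposite strand are uncertain (7 of the 50 by more than 20% of their exon length). All 40 columns were matched to samples and 0 belonged to others.

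Counts were normalized by TMM and tested in edgeR 4.0.16 (R 4.3.3) by the quasi-likelihood F-test with legacy = TRUE, with 1 group per condition over all 40 libraries, no covariate and a filter of at least 10 counts in sum. Benjamini-Hochberg adjustment covered all 28922 genes, with a threshold of 0.01, and 18 comparisons were made. The SE is the log2 fold change divided by the square root of F. Fits were tested on simulated data. The labels call the replicates biological while the paper's methods call them technical, so p-values measure only the spread between these libraries. That spread was estimated over all 10 conditions together and is not that of the groups compared. For DMSO against no treatment, unadjusted p was below 0.05 for 10.8% of all genes tested in WT and 1.86% in PARP1-KO cells. With only the conditions compared, Tpc against DMSO in PARP1-KO cells called 18 genes instead of 0. Genotype calls moved from 12.4% to 7.13% with DMSO and from 9.77% to 16.8% with OL9-119.

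The 50 genes, their roles and the wider list were chosen with earlier results of these data known. Genes named are PARP1, MYC, the highest and lowest member of each role with DMSO, the 3 highest and 3 lowest called members without overlap in every other comparison, the same of the wider list with a mean of at least 50 counts, and others for their role or in a count. UTP3 with OL9-119 and DDX21 in the difference of responses were named after their values were seen. The alternatives were DESeq2 1.42.0, RLE, no filter, filterByExpr, only the conditions compared, the replicate block, the library-name prefix, length and GC offsets, library complexity, untreated cells as comparator and each library left out.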

Additional observations from a re-analysis of the deposited data

Results flagged for a closer look

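For the 27 genes of the list named by rule and for their summed share, each group of 4 libraries was checked for 1 library far from the other 3 by Dixon's criterion at 95%. It marked 13 of 280 groups, and chance marks about 1 in 20.

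PARP1-KO DMSO replicate 3 was marked for GNL3 (454 CPM, the other 3 at 381 to 393), DDX21 (941 CPM, 736 to 769) and BOP1 (81.2 CPM, 121.8 to 128.4). WT DMSO replicate 3, the library with the fewest genes after thinning, was marked for NOP58 (343 CPM, 228 to 247) and NOB1 (87.6 CPM, 49.8 to 54.4). In the OL9-119 groups, POLR1A stood apart in PARP1-KO replicate 4 (84.4 CPM, 72.9 to 73.4) and in WT replicate 2 (71.0 CPM, 106 to 111), UTP3 in PARP1-KO replicate 3 (43.3 CPM, 38.92 to 39.30) and NOB1 in WT replicate 1 (77.5 CPM, 62.9 to 65.1). With Tpc + OL9-119, UBTF stood apart in WT replicate 1 (202 CPM, 173 to 178) and UTP18 in PARP1-KO replicate 3 (147 CPM, 127.5 to 129.7). DDX10 did so in WT Tpc replicate 2 (61.9 CPM, 39.7 to 41.6) and NOB1 in untreated PARP1-KO replicate 1 (85.5 CPM, 63.4 to 67.0).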

How the results depend on the processing

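The number of genes called between the genotypes stayed within 1.5 times of the reported one in all alternatives except 3. It was 11 with DMSO, instead of 22, when only the 2 conditions were fitted, and 26 without treatment and 22 with Tpc + OL9-119, instead of 17 and 14, without the 8 libraries of few genes. The share of all genes called moved the same way, from 12.4% to 7.13%, from 11.7% to 13.4% and from 7.27% to 9.36%. With 1 library left out it ran from 16 to 20 with DMSO, 13 to 19 without treatment, 12 to 16 with Tpc, 18 to 20 with OL9-119 and 12 to 14 with the combination. The drug calls in WT cells moved more. For Tpc (1 called) the number was 2 with DESeq2, without a filter, with the replicate block and without the libraries of few genes, 3 with offsets, with complexity as a covariate and against untreated cells, 0 with only the conditions compared, and 0 to 2 with a library left out. For OL9-119 (0 called) it was 1 with DESeq2, RLE, filterByExpr, no filter and the replicate block, each time UTP3, and 0 to 1 with a library left out. For Tpc + OL9-119 (4 called) it was 7 with DESeq2, 1 with only the conditions compared, 2 without the libraries of few genes, and 1 to 6 with a library left out. Of all genes tested, 0.985%, 1.15% and 3.38% were called for these 3 in WT cells, 3.75%, 4.19% and 8.59% with DESeq2, and 0.398%, 0.328% and 1.36% with only the conditions compared. The difference of responses to the combination (0 called) gave 1, DDX21, with DESeq2, no filter, untreated cells as comparator and without the libraries of few genes, and 0 to 1 with a library left out. The cause of these moves was not tested. Same-numbered libraries did not deviate together in every pair, and the main fit did not pair the samples. Within a genotype, the mean correlation of their deviations ran from 0.0024 (PARP1-KO, DMSO and no treatment) to 0.127 (PARP1-KO, OL9-119 and DMSO). For libraries of different numbers the means in these comparisons were 0.0066 and −0.040. A pairing in some conditions is thus not excluded. The block changed no other count by over 1.5 times. Genes not called with DMSO changed sign as follows: NCL to −0.11 with offsets, TBL3 to 0.13 with offsets, 0.0045 without the libraries of few genes and −0.23 to 0.15 with a library left out, and RRS1 to 0.14, 0.17 and −0.33 to 0.021 under the same 3. TBL3 and RRS1 changed sign without WT DMSO replicate 3 alone. No filter moved the median of all genes with DMSO from 0.19 to 0.01 and complexity as a covariate to 0.03, with 17 and 19 of the 50 higher and 4 and 1 lower. Few counts limit genes such as NOP2. It was counted 0 times in WT replicate 3 without treatment and with DMSO, and in WT replicate 2 with OL9-119 and with Tpc + OL9-119. All of these are among the 8 libraries of few genes. In the library with the smallest total, WT replicate 4 with Tpc + OL9-119, it was counted 2 times. The cause was not tested.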
